A study of Mus musculus with 12 samples.

Results

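The difference of LPS responses between genotypes is, for each gene, the log2 change from vehicle to LPS in Runx1KO neutrophils less the same change in Control neutrophils. A value above 0 means a higher response in Runx1KO. All 12 libraries of the series enter it, and it was computed for the 12917 genes with enough reads to test, of 37310 in the table. It was also computed for each library number alone, as Runx1KO LPS minus Runx1KO vehicle, less Control LPS minus Control vehicle, among the 4 libraries that carry that number.

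The samples were neutrophils from the hind limb marrow of C57BL/6 mice, sorted as CD11b+, Siglec F-, F4/80- and Ly6G+ and kept for 2 h with vehicle or with LPS at 100 ng/mL before RNA extraction. There were 4 groups of 3 libraries: Control with vehicle, Control with LPS, Runx1KO with vehicle and Runx1KO with LPS, with libraries numbered 1 to 3 in each group. The series' design text describes Control as pooled marrow of 1 Runx1f/f mouse and 1 Runx1f/- mouse, the second of which carries a germline mutation of 1 Runx1 allele, and names LKS- cells, whereas the sample labels name sorted neutrophils. The Cre or other means by which Runx1 was deleted, the age of the mice and the number of mice behind each library were not given in the sources used here, so p-values measure only the spread between these libraries.

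LPS, a lipid of the outer membrane of Gram-negative bacteria, is carried by CD14 to the receptor TLR4 with its partner MD-2 (Ly96). Through the adaptor MyD88 it turns on the transcription factor NF-kB and the MAP kinases, and neutrophils then make cytokines such as TNF and IL-1 beta, chemokines that draw further leukocytes, and inhibitors that end the signal. RUNX1 is a DNA-binding transcription factor needed for normal blood cell formation, and the series' title names it as a negative regulator of neutrophil cytokine production after Toll-like receptor signaling, so the comparison asks whether the response to LPS is larger without it.

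The libraries held 19023610 to 26225169 counts. The neutrophil transcripts S100a8 (21819 to 48022 CPM, counts per 1000000 counts of the scaled library) and S100a9 (29107 to 55298 CPM) were high in all 12, with Csf3r at 1009 to 1773 CPM. Runx1 itself was at 26.1 to 56.2 CPM in Control and 43.7 to 75.4 CPM in Runx1KO, but counts over the whole gene do not check a deletion of unknown extent. Genotype was therefore read from the 123 genes that differed between Runx1KO and Control with vehicle (0.952% of those tested, adjusted p under 0.05, edgeR). That choice compared the levels of the vehicle libraries alone. The LPS libraries still entered its filter, scaling and estimate of spread, so the check is not fully independent of them. In the LPS libraries, 118, 119 and 115 of the 123 lay nearer the Runx1KO vehicle level in Runx1KO libraries 1, 2 and 3. In Control libraries 1, 2 and 3, 3, 0 and 2 did so. Libraries stood apart in the median level of the 236 genes chosen for a higher level with LPS in the Control pair numbered 3, a choice that itself sets Control vehicle 3 low: Runx1KO vehicle 1 and 2 were above Runx1KO vehicle 3, Runx1KO LPS 1 lay below its own vehicle library, and Runx1KO LPS 3 lay above all others. Xist was at 0 counts and the Y-linked gene Ddx3y was present in the 4 libraries numbered 2, with the reverse in those numbered 1 and 3 apart from a Ddx3y trace of 0.0501 CPM in Control LPS 1, so the libraries numbered 2 shared no mouse with the others.

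No gene passed the test for a different LPS response in Runx1KO and Control. Of 12917 genes, 0 were higher and 0 were lower at an adjusted p under 0.05 in edgeR's quasi-likelihood test (0% called in each direction, smallest adjusted p 0.99993), and DESeq2 and limma-voom called 0 as well. At an unadjusted p under 0.05 there were 77 genes (0.596%), 43 higher (0.333%) and 34 lower (0.263%) in Runx1KO. With library number added to the edgeR model as a block, the count was 185, also with 0 genes called. Both counts were below the 646 genes expected at that level if no gene differed. That expectation needs p-values that are uniform without a difference, and the error of the fit without a block holds the spread between library numbers. The shortfall is therefore not read as evidence of equal responses. The count without a block was 352 when Runx1KO LPS 1 was left out and 121 when Runx1KO vehicle 2 was. It was 117 without Runx1KO LPS 2, 117 without Runx1KO LPS 3 and 119 without the 4 libraries numbered 1. Each of these fits again called 0 genes. The LPS response of Control alone gave 0 called genes with 78 at an unadjusted p under 0.05 (0.604%). That of Runx1KO alone gave 0 with 676 (5.23%), and DESeq2 called 1. The fitted difference was above 0 for 7111 genes (55.1%), with a median of 0.05 on the log2 scale. Scaling by library size alone in place of TMM moved that median to -0.15, so small positive differences of a gene list are read against it.

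The precision of the comparison was low for the genes that LPS acts on. The median standard error of the difference was 0.607 log2 over all genes and 1.39 over the cytokines, and the 95% interval reached 1.32 log2 to either side of the fitted value at the median gene. For 3686 genes the interval was narrower than 1 log2 to either side. A difference of the size seen in a single library number could thus lie within the interval of most inflammatory genes, and the missing calls do not show that the genotypes respond alike.

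The 3 library numbers gave different pictures. Among the 7813 genes whose mean log2 CPM was 2 or more, the difference passed 1 log2 in either direction for 10.2% of genes in number 1, 0.870% in number 2 and 21.7% in number 3. In number 1 the genes past 1 log2 were mostly lower in Runx1KO (583 lower and 212 higher), whereas number 3 had 855 higher and 837 lower and number 2 had 31 higher and 37 lower. Across these genes, the differences of numbers 1 and 3 correlated at r = -0.30, those of 1 and 2 at -0.02 and those of 2 and 3 at 0.17. These correlations are descriptions across genes, which are not independent replicates, and no library is shared between numbers. The signs were the same in all 3 numbers for 3140 of the 12917 genes (24.3%), 1788 with the higher response in Runx1KO (13.8%) and 1352 with the lower (10.5%).

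**Figure D1:**
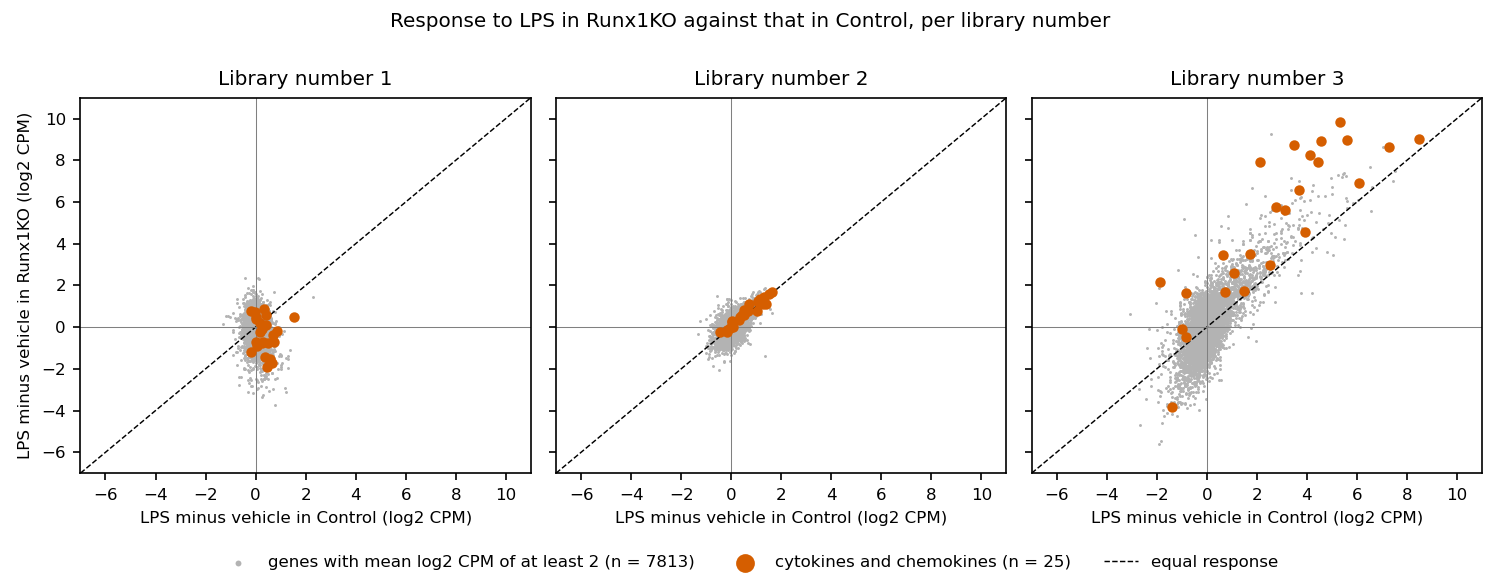
Each panel plots, for 1 library number, the LPS minus vehicle change in Runx1KO (y axis, log2 CPM) against that in Control (x axis, log2 CPM). Grey points are the 7813 genes whose mean log2 CPM was 2 or more, orange points are the 25 cytokine and chemokine genes among them, and the dashed line marks equal responses. The orange points lie mostly below the line in number 1, along it in number 2 and mostly above it in number 3.

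Chemokines had the highest median difference of the 28 gene lists, yet no member passed the test. Of 15 chemokine genes tested, 13 had a fitted difference above 0 (86.7%, against 55.1% of all genes), 0 had an unadjusted p under 0.05, and the median was 1.01 log2. The medians within numbers 1, 2 and 3 were -0.70, 0.06 and 2.47, with 4, 9 and 14 of the 15 above 0, against 53.9%, 53.4% and 50.5% of all genes. Without Runx1KO LPS 3 the median over the list was -0.11, and without Runx1KO LPS 1 it was 1.54. Of the 28 list medians 25 took both signs over the fits that left out libraries. The exceptions were the primary granule and mitochondrially encoded lists, above 0 in each such fit, and the megakaryocyte and platelet list, below 0 in each.

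The sequences of 2 chemokine promoters are shown because these genes had some of the highest differences in number 3 and because their starts hold, in 1 case, the core of the motif that RUNX factors bind and, in the other, the core bound by NF-kB. Both are the 250 bases before the RefSeq gene start on GRCm38.p6, which is not the mm9 build of the counts. Capitals mark the motif TGTGGT in Ccl3 (minus strand, chr11:83649379-83649628) and GGGAN directly followed by TTNCC in Cxcl2 (plus strand, chr5:90903649-90903898).
Ccl3: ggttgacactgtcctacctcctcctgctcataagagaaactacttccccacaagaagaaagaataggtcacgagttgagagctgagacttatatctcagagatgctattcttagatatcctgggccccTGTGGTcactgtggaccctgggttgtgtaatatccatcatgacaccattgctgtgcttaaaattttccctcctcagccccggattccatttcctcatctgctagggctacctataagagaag
Cxcl2: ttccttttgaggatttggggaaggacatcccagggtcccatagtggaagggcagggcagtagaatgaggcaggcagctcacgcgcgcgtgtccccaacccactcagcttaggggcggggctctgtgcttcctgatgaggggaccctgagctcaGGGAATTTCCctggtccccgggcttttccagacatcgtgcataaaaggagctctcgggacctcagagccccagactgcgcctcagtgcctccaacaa
Searching both strands of the same window, TGTGGT was found in 14.0% of 32851 RefSeq promoters and the motif of GGGAN and TTNCC in 0.98%. Neither of the promoters shown held both motifs, so no matches overlapped. Of 18 listed chemokines 11 had a promoter entry, and 3 of these 11 held TGTGGT and 4 held the NF-kB motif. Of 24 listed cytokines 17 had entries, with 21 promoters, of which 3 held TGTGGT and 2 held the NF-kB motif. A match is a description of letters, not a site of binding. Ccl4 is named only.

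Ccl3, a chemokine that draws monocytes and T cells, stood at 317, 637 and 115 CPM in Control vehicle libraries 1, 2 and 3 and at 572, 1397 and 2744 CPM in Control LPS. In Runx1KO it stood at 249, 1316 and 23.8 CPM with vehicle and at 222, 3238 and 11658 CPM with LPS. The vehicle and LPS libraries overlapped in both genotypes, and the highest value was Runx1KO LPS 3. Its difference of responses was -1.02, 0.17 and 4.35 log2 in numbers 1, 2 and 3 and 1.11 in the fit (standard error, SE, 1.82, 95% interval -2.87 to 5.09), with an adjusted p of 0.99993 in edgeR. Without Runx1KO LPS 3 the fitted value was -0.44.

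Ccl4, a close relative of Ccl3, was likewise highest in Runx1KO LPS 3. It stood at 68.9, 65.1 and 111 CPM in Control vehicle and 87.4, 148 and 486 in Control LPS. Runx1KO libraries held 45.2, 242 and 20.8 with vehicle and 83.0, 566 and 5075 with LPS. Its difference was 0.53, 0.04 and 5.79 in the 3 numbers and 2.66 in the fit (SE 1.70, interval -1.05 to 6.36, edgeR adjusted p 0.99993). The groups overlapped, and without Runx1KO LPS 3 the fitted value was 0.09.

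Cxcl2, which draws neutrophils through CXCR2, stood at 2262, 280 and 141 CPM in Control vehicle and 2976, 699 and 1586 in Control LPS. Runx1KO libraries held 1621, 605 and 22.0 with vehicle and 1744, 1659 and 9372 with LPS. The Control vehicle library numbered 1 was thus above 2 of the 3 Control LPS libraries. Its difference was -0.29, 0.13 and 5.24 in the 3 numbers and 1.53 in the fit (SE 1.79, interval -2.36 to 5.43). Cxcl1, another CXCR2 ligand, was at 4.79, 154 and 294 CPM in Runx1KO LPS against 7.97, 71.1 and 0.491 in Runx1KO vehicle, and its difference was -1.47, -0.15 and 3.39.

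The ends of the chemokine list rested on few reads. Ccl7, a monocyte chemokine, had the highest fitted difference (3.45, SE 2.18) from 9 and 4 counts in Control vehicle and Control LPS and 32 and 156 counts in Runx1KO vehicle and Runx1KO LPS. Ccl22, which draws T cells through CCR4, had the lowest (-2.32, SE 1.78) from 17, 74, 39 and 31 counts in those 4 groups, with differences of -2.16, -2.73 and -2.71 in numbers 1 to 3. Ccl6, which was abundant at 711 to 1826 CPM, had a difference of 0.19 (SE 0.48), a small error beside the other chemokines described.

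The median difference of the cytokines, too, turned sign between library numbers. Of 22 cytokine genes tested, 17 had a fitted difference above 0 (77.3%) and 0 had an unadjusted p under 0.05, with a median of 0.49. The medians within numbers 1, 2 and 3 were -0.97, 0.02 and 2.12, and 6, 13 and 20 members were above 0. Without Runx1KO LPS 3 the median was -0.40, and without both Runx1KO libraries numbered 1 it was 0.98.

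Tnf, the cytokine that starts much of the inflammatory cascade, stood at 1281, 594 and 28.2 CPM in Control vehicle libraries 1, 2 and 3 and at 1898, 1264 and 1927 CPM in Control LPS. In Runx1KO it stood at 1419, 1184 and 73.0 CPM with vehicle and at 488, 2866 and 8859 CPM with LPS. Every Control LPS library was above its same-numbered vehicle library, as were Runx1KO libraries 2 and 3, whereas Runx1KO LPS 1 was below. The difference was -2.11, 0.19 and 0.83 in the 3 numbers. The fitted value was 0.77 in edgeR (SE 1.70, interval -2.93 to 4.47, adjusted p 0.99993) and -0.37 in limma-voom, which averages log values. It was -0.52 without Runx1KO LPS 3 and 1.80 without both Runx1KO libraries numbered 1.

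Il1b, which encodes the fever-inducing cytokine IL-1 beta, was among the most abundant cytokine transcripts. It stood at 4671, 3320 and 1023 CPM in Control vehicle and 5279, 4532 and 6960 in Control LPS. Runx1KO libraries held 3458, 3650 and 265 with vehicle and 3939, 5464 and 14339 with LPS. All 6 LPS libraries were above their same-numbered vehicle libraries. The difference was 0.01, 0.13 and 2.99 in the 3 numbers and 0.79 in the fit (SE 1.13, interval -1.68 to 3.26), and it was 0.03 without Runx1KO LPS 3.

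Other cytokines differed in how far number 1 went below 0. Il1a, a second IL-1 receptor ligand, had differences of -2.25, 0.19 and 4.51, and Il1rn, which encodes the antagonist of that receptor, had -0.99, 0.15 and 1.79. Csf3, the growth factor of neutrophils, had differences of -1.61, -0.09 and 3.64, with 329 CPM in Runx1KO LPS 3 against 14.6 in Control LPS 3. Il23a, a subunit of IL-23 that drives T cell IL-17, had -2.41, 0.08 and 0.54. Csf2 had 0 counts with vehicle and 17 with LPS in Control, and 16 and 123 in Runx1KO, so its fitted value is not given.

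Il10, which encodes an anti-inflammatory cytokine, had a fitted difference below 0 from few reads. It stood at 0.252, 0.999 and 0.338 CPM in Control vehicle and 1.40, 2.02 and 6.59 in Control LPS. Runx1KO libraries held 0.728, 1.91 and 0 with vehicle and 0.0856, 2.92 and 2.98 with LPS. The difference was -4.37, -0.36 and 1.15 in the 3 numbers and -1.45 in the fit (SE 1.74, interval -5.25 to 2.35). Il6, a cytokine of the acute phase, had 117, 254, 87 and 229 counts in Control vehicle, Control LPS, Runx1KO vehicle and Runx1KO LPS and a difference of 0.41 (SE 1.73).

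**Figure D2:**
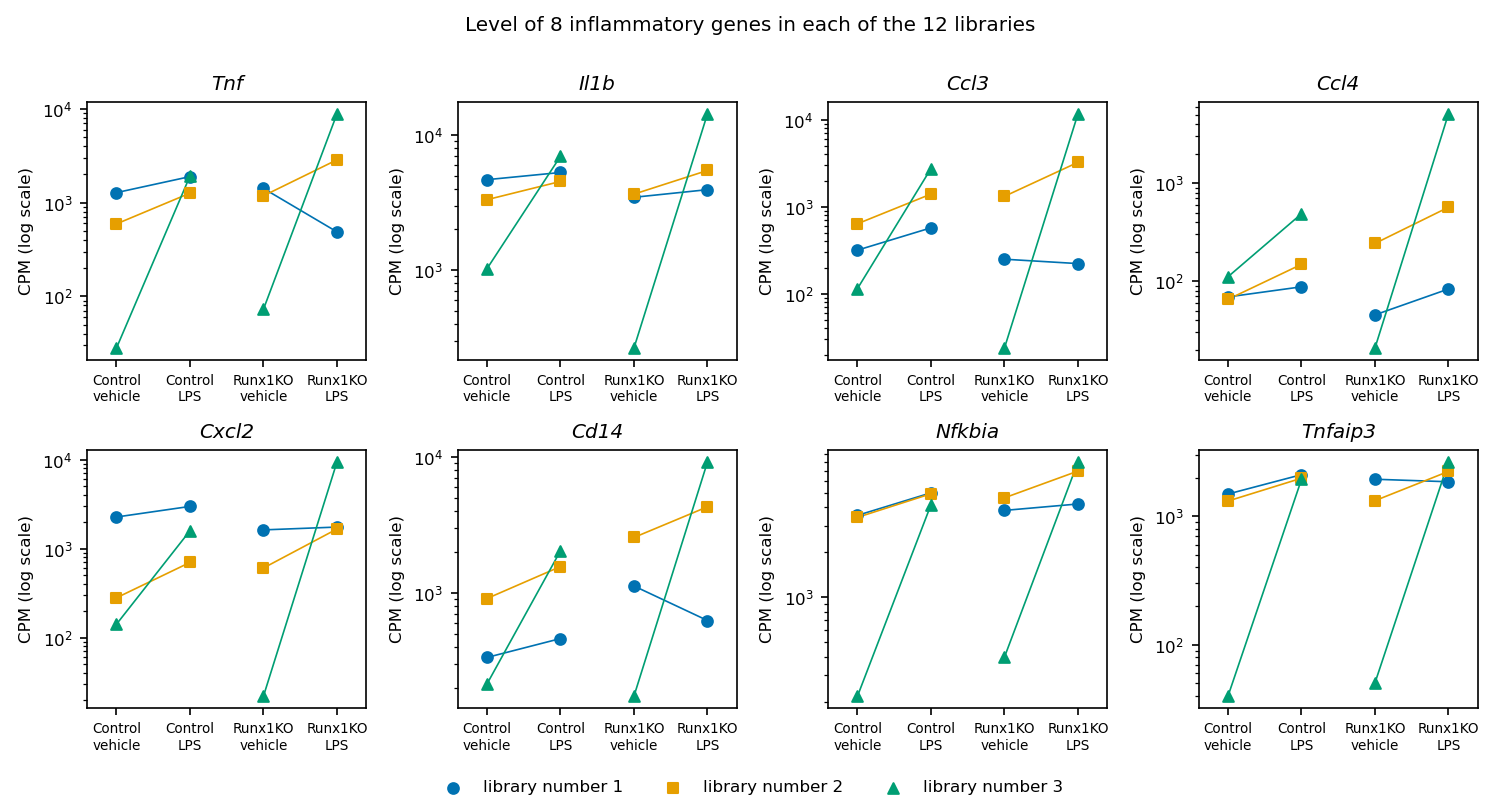
Points give the CPM (log axis) of 8 genes in each of the 12 libraries, and lines join the vehicle and LPS libraries of the same number within a genotype. Apart from Ccl4 in Control, the vehicle library numbered 3 is the lowest vehicle library of its genotype, and Runx1KO LPS 3 is the highest library in every panel, at 8859 CPM for Tnf and 11658 CPM for Ccl3.

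The receptor and its adaptors had small fitted differences. Of 28 genes for LPS receptors, adaptors and kinases, 19 were above 0 (67.9%) and 0 had an unadjusted p under 0.05, and the median of 0.16 became -0.13 with library size alone, -0.12 in limma-voom and -0.33 without Runx1KO LPS 3. Cd14, the LPS carrier protein at the cell surface, stood at 335, 909 and 214 CPM in Control vehicle and 461, 1563 and 2042 in Control LPS. Runx1KO libraries held 1124, 2559 and 174 with vehicle and 626, 4303 and 9188 with LPS. Its difference was -1.31, -0.03 and 2.47 in the 3 numbers and 0.39 in the fit (SE 1.39, interval -2.65 to 3.43), and it was -0.55 without Runx1KO LPS 3. Tlr4 was low, at 5.55 to 24.6 CPM in Control and 17.0 to 34.4 CPM in Runx1KO, with differences of 0.70, -0.17 and 0.65 and a fitted value of 0.57 (SE 0.69).

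Ly96, which encodes MD-2, was above 0 in all 3 numbers, with differences of 0.81, 0.41 and 0.67 and a fitted value of 0.79 (SE 1.10). The adaptor gene Myd88 had -2.11, 0.17 and 0.75 and a fitted value of 0.03 (SE 0.98), which was -0.35 with library size alone and -0.39 in limma-voom. Among the less expressed receptors, Tlr9 had 32, 67, 24 and 110 counts in the 4 groups and a difference of 1.24 (SE 2.07), which was -0.42 in limma-voom, and Cd180 had 11, 19, 22 and 16 counts and -1.06 (SE 1.87).

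NF-kB genes lay mostly on opposite sides of 0 in numbers 1 and 3. Of 16 subunit, inhibitor and kinase genes, 1, 12 and 14 had a difference above 0 in numbers 1, 2 and 3, with medians of -1.61, 0.09 and 0.62. In the fit 12 were above 0 (75%), 0 had an unadjusted p under 0.05, and the median was 0.10, which became -0.22 both with library size alone and in limma-voom and -0.41 without Runx1KO LPS 3. With library size alone the median of number 3 was 0.08. Under the same scaling the medians of all genes were 0.02, -0.05 and -0.51 in numbers 1, 2 and 3.

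Nfkbia, which encodes I kappa B alpha, the cytoplasmic retainer of NF-kB and itself an NF-kB target, stood at 3517, 3411 and 217 CPM in Control vehicle and 4975, 4906 and 4143 in Control LPS. Runx1KO libraries held 3796, 4607 and 397 with vehicle and 4191, 6956 and 7992 with LPS. All 6 LPS libraries were above their same-numbered vehicle libraries. The difference was -0.36, 0.07 and 0.08 in the 3 numbers and 0.15 in the fit (SE 1.23, interval -2.54 to 2.83), with -0.10 under library size alone and -0.07 in limma-voom. Map3k8, the kinase that links NF-kB1 to the ERK pathway, had differences of -3.28, 0.10 and -1.0, and Nfkbie, another inhibitor, had -2.45, 0.17 and 0.08. Ikbke, a kinase that activates interferon regulatory factors, had the highest fitted value of the list (0.78, SE 1.95). Its differences in the 3 numbers were only -1.35, -0.22 and 0.07. The fitted value was -0.48 in limma-voom and -1.28 without Runx1KO LPS 3.

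The inhibitors that NF-kB induces against itself followed the same order. Of 17 feedback inhibitor genes, 4, 13 and 12 were above 0 in numbers 1, 2 and 3, with medians of -1.42, 0.17 and 0.70, and the fit gave 11 above 0 (64.7%) and a median of 0.16, which was -0.19 with library size alone, -0.29 in limma-voom and -0.56 without Control vehicle 2. Tnfaip3, which encodes the ubiquitin-editing enzyme A20, stood at 1491, 1315 and 39.8 CPM in Control vehicle and 2110, 1979 and 1936 in Control LPS. Runx1KO libraries held 1943, 1323 and 50.5 with vehicle and 1857, 2236 and 2644 with LPS. The difference was -0.57, 0.17 and 0.11 in the 3 numbers and -0.06 in the fit (SE 1.52, interval -3.37 to 3.25). In number 3, where the vehicle level was low in both genotypes, Tnfaip3 and Nfkbia thus had nearly equal responses while Ccl3, Ccl4 and Cxcl2 did not; whether genes differ in this way was not tested.

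Socs1, an inhibitor of JAK-STAT signaling, had differences above 0 in all 3 numbers, at 1.86, 0.94 and 1.31. It had 114, 169, 140 and 644 counts in Control vehicle, Control LPS, Runx1KO vehicle and Runx1KO LPS and a fitted value of 1.55 (SE 1.10, interval -0.86 to 3.96, edgeR adjusted p 0.99993), which was 0.35 without Runx1KO LPS 1. Otud1, a deubiquitinase, was lowest at -0.56 (SE 0.57).

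Immediate-early transcription factors had fitted differences mostly above 0. Of 24 AP-1, EGR and related genes, 21 had a fitted difference above 0 (87.5%), 2 had an unadjusted p under 0.05 (8.33% of the list against 0.596% of all genes), and the median was 0.53. The medians in numbers 1, 2 and 3 were -0.14, 0.08 and 2.27, with 11, 14 and 23 members above 0. The fitted median was -0.06 without Control vehicle 1 and 0.03 without the libraries numbered 3.

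Fos, the AP-1 subunit induced within minutes of stimulation, had the highest fitted value of the list. It stood at 237, 41.6 and 657 CPM in Control vehicle and 175, 39.5 and 77.2 in Control LPS. Runx1KO libraries held 45.6, 36.7 and 21.1 with vehicle and 236, 34.1 and 32.7 with LPS. Every Control LPS library was below its same-numbered vehicle library, and lower values with LPS in Control add to the difference. The difference was 2.80, -0.03 and 3.71 in the 3 numbers and 3.23 in the fit (SE 1.36, interval 0.27 to 6.18), with an unadjusted p of 0.0348 and an adjusted p of 0.99993 in edgeR. It was 1.63 without Runx1KO LPS 1.

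Myc, a transcription factor that promotes growth and ribosome production, was low throughout. It stood at 1.51, 0.440 and 1.40 CPM in Control vehicle and 1.60, 1.47 and 2.87 in Control LPS. Runx1KO libraries held 0.445, 0.665 and 0.315 with vehicle and 1.93, 1.89 and 5.0 with LPS. The Runx1KO vehicle and LPS libraries did not overlap, and all 3 Control LPS libraries were above their same-numbered vehicle libraries. The difference was 1.84, -0.17 and 2.66 in the 3 numbers and 1.79 in the fit (SE 0.81, interval 0.02 to 3.57), with an unadjusted p of 0.0482 and an adjusted p of 0.99993 in edgeR.

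Egr1, another early factor, had differences of 0.32, -0.95 and 3.73, and Junb, an AP-1 subunit, had -0.30, 0.35 and 0.72. Maff, a small MAF factor, had -1.75, 0.12 and 2.99 and the lowest fitted value of the list (-0.42, SE 1.55), which was 0.54 in limma-voom. The phosphatases and Sprouty proteins that end MAP kinase signals had medians of -0.39, -0.24 and 1.67 in numbers 1, 2 and 3, with 8 of 12 above 0 in the fit (66.7%), whose median of 0.28 was -0.43 without the libraries numbered 3. Their ends were Spry2, a Sprouty inhibitor, at 0.63 (SE 0.98) and Dusp8, a phosphatase of stress kinases, at -1.40 (SE 2.05), which was 0.22 in limma-voom. Dusp6, the ERK phosphatase, was lower with LPS in all 6 pairs, from 88.9 to 136 CPM with vehicle in Control and 91.5 to 119 in Runx1KO to 28.3 to 62.5 and 35.1 to 46.9 with LPS, and its difference of -0.04 had an SE of 0.42 (interval -0.96 to 0.87).

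Interferon-stimulated genes had a median of 0.28, with 26 of 32 above 0 (81.3%) and 0 at an unadjusted p under 0.05. Their medians in numbers 1, 2 and 3 were 0.35, -0.02 and 0.52, so number 1 did not lie below 0 here. Isg15, a ubiquitin-like modifier, was highest at 1.31 (SE 1.01), with 20.1, 39.8 and 71.2 CPM in Runx1KO LPS against 19.3, 22.9 and 3.89 in Runx1KO vehicle. Cmpk2, a mitochondrial kinase next to Rsad2, had differences of 2.06, -0.34 and -0.53, and Mx2, an antiviral GTPase, had the lowest fitted value (-0.46, SE 1.04). The median of the list was -0.21 without Control vehicle 1 and -0.01 without Runx1KO LPS 1.

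Oxidase subunits and inducible effectors had 17 of 19 members above 0 (89.5%) and a median of 0.33, with medians of -0.08, 0.10 and 1.00 in the 3 numbers, and it was -0.17 without Runx1KO LPS 3. Acod1, which makes itaconate, stood at 1791, 1902 and 436 CPM in Control vehicle and 2544, 3324 and 5593 in Control LPS. Runx1KO libraries held 1676, 1844 and 78.7 with vehicle and 583, 3841 and 10155 with LPS, with differences of -2.03, 0.25 and 3.33. Ptgs2, the inducible cyclooxygenase, had 0.23, 0.03 and 4.86, and Sod2, the mitochondrial superoxide dismutase, had -2.82, 0.03 and 0.45. Slc7a11, the cystine transporter, was highest in the fit (0.95, SE 1.09), and Alox5, which starts leukotriene synthesis, was lowest (-0.30, SE 0.48). Among inflammasome and cell death genes 13 of 22 were above 0 (59.1%), with Nlrp3, the inflammasome sensor, at -1.81, 0.31 and 1.53. The ends of that list were Bcl2a1b, a survival gene with near-identical copies whose reads are uncertain, at 0.87 (SE 1.88) and Nlrc4, a sensor of bacterial flagellin, at -0.71 (SE 1.56).

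**Figure D3:**
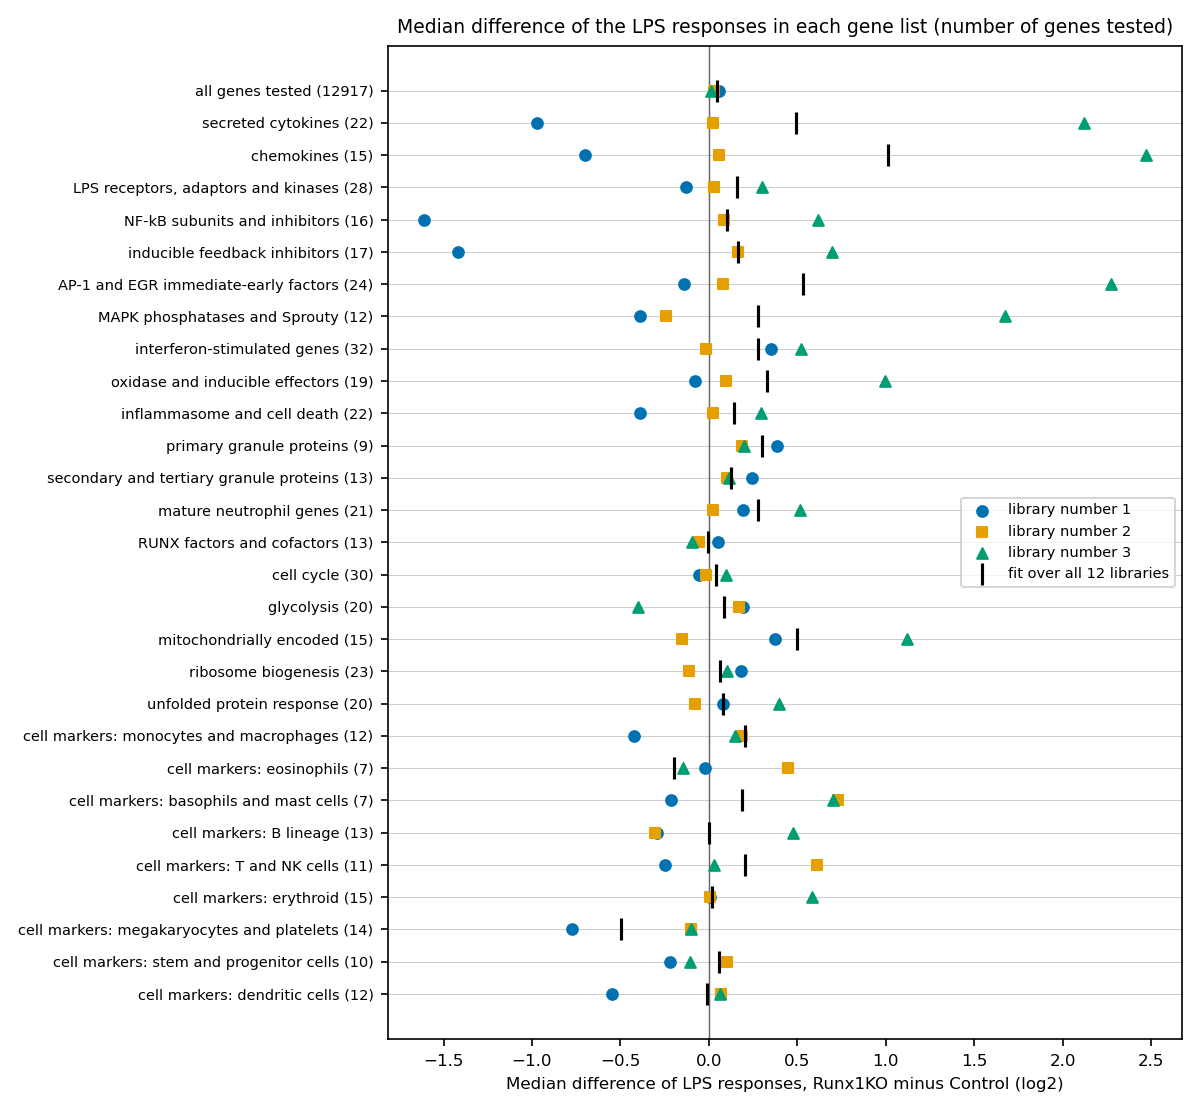
For all genes tested and each of the 28 gene lists (number of genes tested in brackets), coloured symbols give the median difference of LPS responses in each library number and black ticks the median of the fitted differences (x axis, log2). NF-kB genes are at -1.61 in number 1 and 0.62 in number 3, and chemokines at -0.70 and 2.47, while number 2 stays close to 0 for both.

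Granule proteins, made during neutrophil maturation and stored, had median differences above 0 in all 3 numbers under TMM scaling. In number 3 these medians were small, at 0.20 for primary and 0.11 for secondary and tertiary granule genes. Without TMM factors, number 3 had a median over all genes of -0.51 in place of 0.01. The granule medians of number 3 were not computed that way. A scaling factor moves all genes of a library nearly alike, and this shift is larger than 0.20. The place of these medians above 0 in number 3 thus depends on TMM scaling. All 9 primary granule genes had a fitted difference above 0 and 6 were above 0 in all 3 numbers (66.7%, against 13.8% of all genes), with medians of 0.39, 0.19 and 0.20 in the 3 numbers and 0.30 in the fit, and 0 had an unadjusted p under 0.05. The fitted LPS response of the primary granule genes had a median of -0.39 in Control and 0.18 in Runx1KO. Lower values with LPS in Control thus add to their difference. Prss57, a serine protease, was highest at 1.01 (SE 0.93), with 338, 215, 68 and 85 counts in Control vehicle, Control LPS, Runx1KO vehicle and Runx1KO LPS. Of 13 secondary and tertiary granule genes 10 were above 0 (76.9%) with a median of 0.12, which was -0.05 with library size alone. Lcn2, the iron-scavenging protein of secondary granules, was highest at 0.59 (SE 0.55), and Mmp9, the tertiary granule gelatinase, lowest at -0.38 (SE 0.48).

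Among 21 genes of mature neutrophils 15 were above 0 (71.4%) and 1 had an unadjusted p under 0.05, with a median of 0.28 that was -0.03 without Runx1KO LPS 3. That 1 gene was Stfa2l1, a cysteine protease inhibitor of a family of near-identical copies whose reads are uncertain. It stood at 52.4, 47.7 and 77.5 CPM in Control vehicle and 51.1, 49.9 and 57.5 in Control LPS. Runx1KO libraries held 96.5, 98.8 and 96.7 with vehicle and 141, 138 and 209 with LPS. Its difference was 0.58, 0.41 and 1.54 in the 3 numbers and 0.91 in the fit (SE 0.36, interval 0.12 to 1.69, unadjusted p 0.0269, edgeR adjusted p 0.99993). The Runx1KO vehicle and LPS libraries did not overlap, whereas those of Control did.

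Cxcr2, the chemokine receptor by which neutrophils leave the marrow, lay at the other end of that list. It stood at 479, 699 and 788 CPM in Control vehicle and 403, 667 and 617 in Control LPS. Runx1KO libraries held 497, 664 and 1496 with vehicle and 560, 424 and 276 with LPS, with differences of 0.42, -0.58 and -2.09 and a fitted value of -0.86 (SE 0.60). Ly6g, the sorting antigen, stood at 381 to 471 CPM in the 6 Control libraries and at 106 to 158 CPM in Runx1KO apart from Runx1KO LPS 1 at 351. Its difference was 1.55 in number 1, 0.10 in number 2 and -0.01 in number 3.

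Metabolic and growth programs had medians nearer to 0, apart from the mitochondrially encoded genes. All 15 mitochondrially encoded genes were above 0 with a median of 0.50 (0.26 with library size alone, 0.11 without the libraries numbered 3), and their medians in the 3 numbers were 0.38, -0.15 and 1.12. The highest of them, mt-Atp8, an ATP synthase subunit, was at 0.93 (SE 0.65). Mitochondrial counts made up 0.285 to 0.537% of a library. The glycolysis genes had a median of 0.09, the 30 cell cycle genes 0.04, the unfolded protein response genes 0.08 and RUNX factors with their cofactors -0.01. The ends of these lists were Pfkm, a phosphofructokinase, at 0.50 (SE 1.01) and Pfkfb4, a regulator of glycolysis, at -0.36 (SE 0.68), Pcna, the replication clamp, at 0.54 (SE 0.63) and Mcm7, a subunit of the replicative helicase, at -0.39 (SE 0.32). Asns, asparagine synthetase, was at 0.94 (SE 1.32) and Eif2ak3, the unfolded protein response kinase PERK, at -1.31 (SE 1.12). The RUNX cofactors Cbfa2t3 and Sin3a, both parts of repressor complexes, were at 0.49 (SE 1.22) and -0.54 (SE 0.52). Runx1 itself had differences of 0.14, 0.15 and -0.21 and a fitted value of 0.01 (SE 0.41). Of 23 ribosome biogenesis genes 13 were above 0 and 1 had an unadjusted p under 0.05, Rrp12, at -1.91 (SE 0.80, interval -3.65 to -0.18, edgeR adjusted p 0.99993) from 119, 108, 70 and 16 counts. Gar1, a small nucleolar ribonucleoprotein, was highest in that list at 1.63 (SE 1.15).

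Marker genes of other cells were examined because a sort leaves some of them and because, in bulk samples, fewer cells of a type and less RNA per cell cannot be told apart. The summed CPM of 15 monocyte and macrophage markers in the table ranged over 1476 to 1795 with vehicle and 1681 to 2109 with LPS in Control, and over 788 to 1474 and 1018 to 3208 in Runx1KO. The top of that range was Runx1KO LPS 3, where Adgre1, which encodes the F4/80 antigen of the sort, was at 1220 CPM against 15.5 to 318 CPM in the other 11 libraries. The summed dendritic cell markers were at 376 CPM in Runx1KO LPS 3, 247 in Control LPS 3 and 44.7 to 140 in the other libraries. Of the 15 monocyte and macrophage markers 6 were higher in Runx1KO LPS 3 than in any other library, as were 4 of the 14 dendritic cell markers. The share of all genes that were highest in that library is not given, so these counts are not read as particular to the markers. Csf1r, the receptor of a macrophage growth factor, was at 741 CPM there against 59.9 to 345 CPM in the others, and Vcam1, an adhesion molecule, at 199 against 14.3 to 184 CPM. The complement genes C1qa, C1qb and C1qc were near 0 in all libraries, at 0.169, 1.35 and 0.506 CPM in Runx1KO LPS 3, and Mertk, a macrophage receptor, was at 0 counts in 4 libraries, that one included. C1qb and C1qc were among the 6. In Runx1KO LPS 3, Ly6c2 at 969 CPM (519 to 1481 in the others), Cd68 at 47.6 (22.2 to 105), F13a1 and Ccr2 lay within the range of the other libraries. Of the dendritic cell sum there, Cd74 alone made 283 CPM. Itgax, Zbtb46, Siglech, H2-Aa and H2-Ab1 lay within the range of the other libraries. The part of other cells in the high inflammatory values of Runx1KO LPS 3 was not tested.

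Megakaryocyte and platelet markers were the list with the lowest median difference. Of 14 genes 12 were below 0, 0 had an unadjusted p under 0.05, and the median was -0.50, with -0.77, -0.10 and -0.10 in the 3 numbers. The summed level was 31.3 to 38.5 CPM with vehicle and 32.9 to 39.3 with LPS in Control, and 64.4 to 71.1 and 54.2 to 75.2 in Runx1KO. On this summed level the difference of responses was -0.45, -0.05 and 0.03 log2 in the 3 numbers. The genes averaged -1.17 to 0.01 log2 CPM in the Control libraries, so the list median rests on few reads in Control. Gp5, a platelet von Willebrand factor receptor subunit, had the lowest value (-2.66, SE 1.22), which came from 1 count in Control vehicle and 7 in Control LPS against 156 and 134 in Runx1KO.

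The other marker lists had medians between -0.20 and 0.21, and all 9 cell marker lists together had 0 called genes. The basophil and mast cell list rested on Hdc, which neutrophils also make, and its markers Prss34 and Mcpt8 were at 0 counts in all 6 Runx1KO libraries. Cpa3, a mast cell protease, had 31 and 19 counts in Control vehicle and LPS and 3 and 19 in Runx1KO, giving a fitted difference of 3.20 (SE 1.04, unadjusted p 0.0096, edgeR adjusted p 0.99993). Erythroid markers summed to 229 to 3229 CPM over the libraries, a range that was wider between library numbers than between treatments, and their median difference was 0.02. Within number 2 the vehicle and LPS sums were 419 and 476 CPM in Control against 2862 and 3229 in Runx1KO. They were 1226 and 1336 against 1925 and 2057 in number 1, and 319 and 393 against 229 and 423 in number 3.

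The ends of the remaining marker lists did not pass the test. Ccr2, a receptor of inflammatory monocytes, was at 1.14 (SE 1.13), and Mertk had 61, 55, 11 and 0 counts in the 4 groups. Cd74, the invariant chain of antigen presentation, was at 0.97 (SE 1.04), with 283 CPM in Runx1KO LPS 3 and 17.5 to 136 CPM in the other libraries, and Zbtb46, a dendritic cell factor, was at -0.65 (SE 1.5). Of the eosinophil genes, Prg2, which encodes major basic protein, was at 0.81 (SE 1.65) and the eotaxin receptor Ccr3 at -1.42 (SE 0.96). In the B cell list Vpreb1, a surrogate light chain, was at -0.24 (SE 0.85), and Ms4a1, which encodes CD20, had 124 and 76 counts in Control and 0 and 1 in Runx1KO. Gzma, a granzyme, was at 0.83 (SE 1.03), and Cd3d, a T cell receptor subunit, was at -0.62 (SE 0.38), with 32.4 to 47.5 CPM in Control and 1.35 to 3.06 CPM in Runx1KO. Epor, the erythropoietin receptor, was at 1.21 (SE 1.12). Vwf, the platelet adhesion protein, was the highest megakaryocyte gene at 0.55 (SE 0.97). Among progenitor genes, Kit, the stem cell factor receptor, was at 1.5 (SE 1.06), with 31.8 and 45.5 CPM in Runx1KO LPS 2 and 3 against 2.45 to 14.1 CPM in the other 10 libraries, and Procr, the protein C receptor, was at -1.53 (SE 0.78).

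The genes that LPS raised in 1 pair were followed through the other pairs. In the Control pair numbered 3, 236 genes whose mean log2 CPM was 2 or more were higher by at least 2 log2 with LPS. Of these 236, 218 were higher with LPS than with vehicle in Control pair 1 and 235 in Control pair 2, against 50.1% and 47.7% of all genes. In Runx1KO, 27 of the 236 were higher with LPS in pair 1, 233 in pair 2 and 236 in pair 3, against 54.7%, 52.2% and 48.2% of all genes. The response of Runx1KO pair 1 thus ran opposite to the other 5 pairs for these genes, while its genotype genes, given above, lay with Runx1KO.

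The median of the 236 genes stood at 4.52, 5.83 and 3.36 log2 CPM in Control vehicle libraries 1, 2 and 3 and at 4.98, 6.48 and 6.63 in Control LPS. In Runx1KO it stood at 5.45, 6.25 and 3.88 with vehicle and at 4.36, 7.04 and 7.78 with LPS. Their median difference of responses was -1.57 in number 1 and 0.12 in number 2, with 14 and 167 of the 236 above 0. In number 3 it was 0.87 with 200 above 0, but number 3 holds the pair that chose the genes, which biases that value and sets the level of Control vehicle 3 low and that of Control LPS 3 high. The median fitted difference was 0.27, and 0 of the 236 had an unadjusted p under 0.05.

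**Figure D4:**
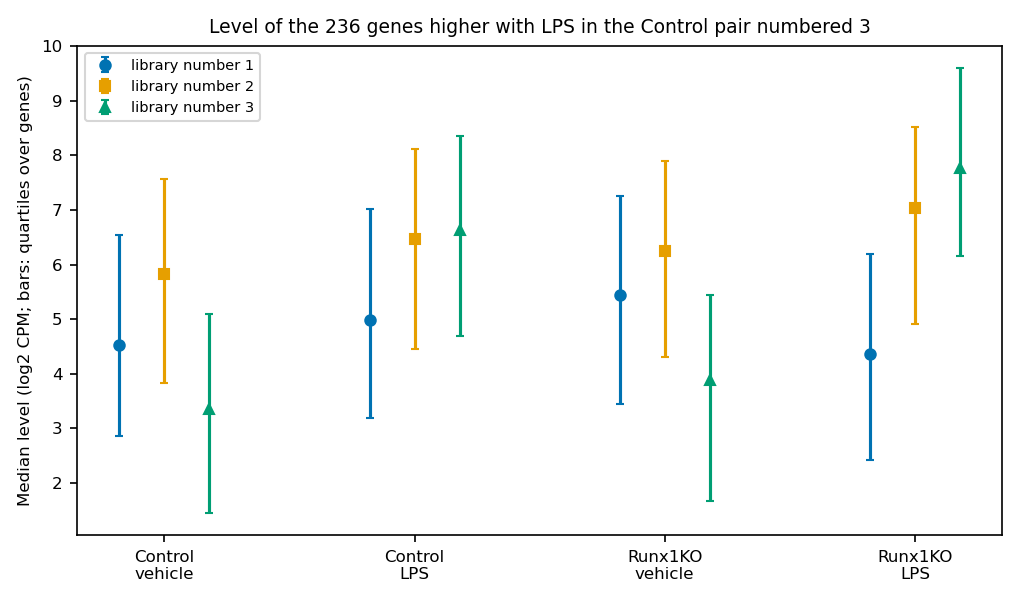
Points give the median level (log2 CPM) of the 236 genes higher with LPS in the Control pair numbered 3, in each of the 12 libraries, and bars the quartiles over the genes. Control vehicle 3 at 3.36 is low by the choice of the genes, whereas Runx1KO vehicle 3, which the choice did not use, is at 3.88 against 5.45 and 6.25 in Runx1KO vehicle 1 and 2, and Runx1KO LPS 1 at 4.36 lies below its vehicle library at 5.45.

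Among genes whose mean log2 CPM was 2 or more, those that held 1 sign with the largest differences came from outside the inflammatory lists. This holds only above that cutoff. Below it, Socs1 (1.86, 0.94 and 1.31) and Ccl22 (-2.16, -2.73 and -2.71) held 1 sign with larger smallest differences than the genes ranked here. Ranked by their smallest difference among the 3 numbers, among genes whose mean log2 CPM was 2 or more, the 10 most positive were Hsdl2, Rhov, Tmem60, Zfp703, Dpy30, Anxa4, Tram2, Rnf128, Hist1h2ai and Ubtd1, out of 830 such genes. The 10 most negative were Fn1, Yars, Tceanc, Dcaf1, Slc37a4, Eml1, Zkscan14, Zfp617, Ldhc and Tonsl, out of 772. This ranking used the differences themselves, so their direction is a description and is no support for a change in any of them.

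Hsdl2, an enzyme of the short-chain dehydrogenase family, stood at 12.3, 8.23 and 7.91 CPM in Control vehicle and 11.8, 8.30 and 10.9 in Control LPS. Runx1KO libraries held 6.23, 6.65 and 4.52 with vehicle and 10.4, 12.7 and 34.5 with LPS. The Runx1KO vehicle and LPS libraries did not overlap, while those of Control did. Its difference was 0.79, 0.91 and 2.45 in the 3 numbers and 1.60 in the fit (SE 0.59, interval 0.31 to 2.89). It was 0.86 without Runx1KO LPS 3.

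Rhov, an atypical small GTPase, had its highest difference in number 1. It stood at 3.4, 1.29 and 1.89 CPM in Runx1KO vehicle and at 17.0, 1.89 and 1.41 in Runx1KO LPS, against 13.8 to 32.6 CPM in Control. The differences were 2.17, 0.77 and 0.71 in the 3 numbers. Its fitted difference of 1.96 (SE 1.08) became -0.08 without Runx1KO LPS 1, 0.38 without both Runx1KO libraries numbered 1 and 0.66 without the 4 libraries numbered 1.

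The remaining positive genes had fitted values of 0.61 to 1.12. Zfp703, a transcriptional corepressor, had 4.49, 4.63 and 2.20 CPM in Control vehicle and 3.76, 5.01 and 5.88 in Control LPS. Runx1KO libraries held 4.21, 4.65 and 2.42 with vehicle and 7.58, 7.86 and 16.3 with LPS, with a fitted value of 1.12 (SE 0.58). Dpy30, a core subunit of histone H3 lysine methyltransferase complexes, had differences of 1.01, 0.93 and 0.62 (fit 0.97, SE 0.65). Tmem60, a membrane protein, had 0.79, 0.68 and 0.79, and Anxa4, a calcium-dependent phospholipid-binding protein, had 0.67, 0.77 and 0.62. The differences of Hist1h2ai, a histone gene with near-identical copies whose reads are uncertain, were 0.61, 0.71 and 0.55.

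Zkscan14, a zinc finger gene, had the smallest error among the negative genes. It stood at 22.4, 17.9 and 15.7 CPM in Control vehicle and 19.9, 19.7 and 11.4 in Control LPS. Runx1KO libraries held 29.5, 21.6 and 26.6 with vehicle and 10.5, 14.9 and 9.84 with LPS. The Runx1KO vehicle and LPS libraries did not overlap, and those of Control did. Its difference was -1.32, -0.68 and -0.98 in the 3 numbers and -1.01 in the fit (SE 0.40, interval -1.88 to -0.14), with an unadjusted p of 0.0262 and an adjusted p of 0.99993 in edgeR.

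Fn1, which encodes the matrix protein fibronectin, stood at 2.31, 1.44 and 15.3 CPM in Control vehicle and 2.86, 3.79 and 10.9 in Control LPS. Runx1KO libraries held 2.67, 3.81 and 29.6 with vehicle and 1.33, 1.39 and 7.36 with LPS. The library numbered 3 was the highest of each group, and the difference was -1.26, -2.74 and -1.51, with a fitted value of -1.74 (SE 1.55). Yars, the cytosolic tyrosyl-tRNA synthetase, had near-equal differences of -0.84, -0.89 and -0.83, and its Runx1KO vehicle libraries stood at 8.34, 14.2 and 27.6 CPM against 4.37, 8.22 and 17.5 for the LPS libraries. Its fitted value of -0.85 had an SE of 0.89. Dcaf1, a substrate receptor of the CUL4 ubiquitin ligase, had -0.92, -0.76 and -0.73, and Slc37a4, the glucose-6-phosphate transporter, had -0.72, -0.86 and -1.07. Ldhc, the testis form of lactate dehydrogenase, was at 14.5 to 71.9 CPM in Control and 0.0562 to 1.91 CPM in Runx1KO, so its difference rests on few reads in Runx1KO.

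**Figure D5:**
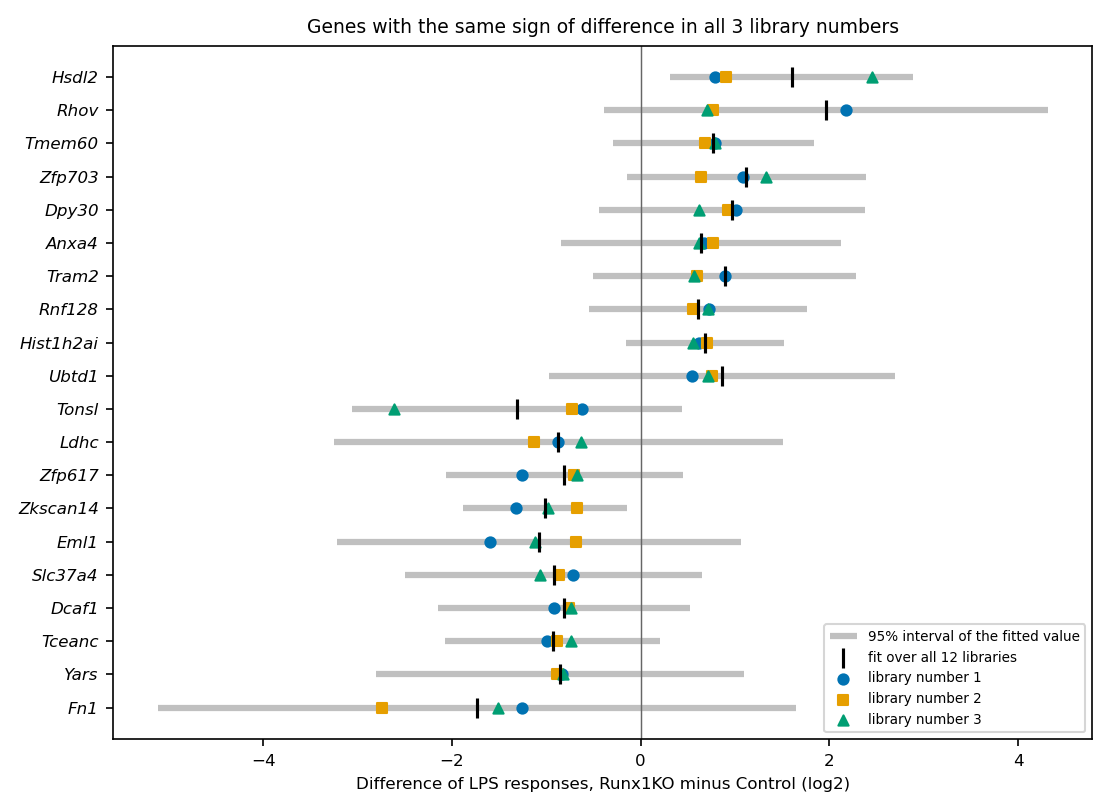
The 20 genes shown ranked highest by their smallest same-sign difference among genes whose mean log2 CPM was 2 or more. Coloured symbols give the difference of LPS responses in each library number (x axis, log2). Black ticks give the fitted difference over 12 libraries and grey bars its 95% interval. Most bars cross 0, and those of Hsdl2 (0.31 to 2.89) and Zkscan14 (-1.88 to -0.14) do not.

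The extremes of each library number showed which genes carried its pattern, and were chosen by the values given. In number 1 the lowest was Adora2b, an adenosine receptor, at -4.36, followed by Lacc1, an immunometabolic enzyme, at -4.08. Abcc1 and Abca1, both membrane exporters, came next at -3.63 and -3.60. Adora2b, Lacc1 and Abca1 had 0.38, -0.10 and 0.00 in number 2 and 1.00, 0.62 and 0.24 in number 3. The highest in number 1 was Fos at 2.80, and the next was Ifit1bl2, at 2.25 in number 1, -0.43 in number 2 and -0.70 in number 3.

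Under the same cutoff, the highest in number 2 was Ripk3, a kinase of necroptotic cell death, at 2.08, and the lowest was Fn1 at -2.74. Below the cutoff, Prss57 was at 2.28 and Mx2 at -2.84 in that number. In number 3 the highest was Serpinb2, a plasminogen activator inhibitor, which stood at 1.61 and 9.84 CPM in Control vehicle and LPS and at 0.561 and 397 CPM in Runx1KO, a difference of 6.71 against -1.66 and 0.53 in numbers 1 and 2. Hilpda, a lipid droplet protein, was second at 6.10, followed by Ccl4, Cxcl2 and, at 4.88, the kinase gene Plk2. The lowest in number 3 were Riox1, a ribosomal oxygenase, and Lhx1, a homeobox factor, both at -3.69, and Eif2ak3 at -3.63. Riox1 had 0.24 and -1.10, and Eif2ak3 -0.12 and -0.74, in numbers 1 and 2.

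The genes that differ between the genotypes with vehicle were examined for their LPS response. Of those 123 genes, 0 had a called difference. At an unadjusted p under 0.05 there were 8 (6.5%, against 0.596% of all genes), 65 were above 0 (52.8%, against 55.1%), and their median difference was 0.06. The vehicle libraries enter both comparisons, so low vehicle values in Runx1KO push the difference up and high ones push it down. Foxo1, a transcription factor at 29.0 to 31.4 CPM in Runx1KO vehicle against 3.32 to 5.12 in Control vehicle, had a difference of -0.22 (SE 0.44). Nrp1, a semaphorin co-receptor at 0.98 to 1.96 CPM in Runx1KO vehicle against 14.3 to 28.1 in Control vehicle, had -0.63 (SE 0.63).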

How the data were processed

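The deposited values are whole-number counts per gene in 12 libraries, not normalized; the authors aligned reads with STAR 2.6.0a to mm9 and counted them with featureCounts, per the submitters' processing notes. ERCC RNA was added, per the labels' protocols, but the table holds no spike-in entries. The annotation, strand setting and read filters were not given in the sources used here, so antisense and overlapping genes cannot be separated. Symbols came from a list of gene names, which matched 12325 of the 12917 genes tested.

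Genes were kept with filterByExpr, scaled by TMM (factors 0.699 to 1.20) and tested with edgeR 4.0.16 (R 4.3.3) quasi-likelihood tests in 1 model of 4 groups without a block. P-values were adjusted by the Benjamini-Hochberg method across the 12917 genes, and intervals are 95%. CPM are TMM-scaled and per-number differences use log2 CPM with a prior count of 2. DESeq2 1.42.0 and limma-voom 3.58.1 were alternatives, with other scaling, filters, a block and left-out libraries. The fit was run on simulated independent counts without any effect of library number. That run checks the code and not the precision reached in these libraries. With 3 against 3 an exact permutation test cannot go below a p of 0.1.

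The genes and the 28 lists were chosen with earlier results of these data known. The text names called genes, the 10 highest and 10 lowest same-sign genes, the ends of each list, and 14 fixed genes (Runx1, Tnf, Il1b, Il6, Il10, Cd14, Tlr4, Ccl3, Ccl4, Cxcl2, Nfkbia, Tnfaip3, Myc and Dusp6). The values of some genes are not reported here. Other named genes were chosen after their values were seen. Promoters are from RefSeq.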

Additional observations from a re-analysis of the deposited data

Results flagged for a closer look

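For 6 of the named genes all 3 Control pairs moved one way with LPS and all 3 Runx1KO pairs the other. All 6 were named for the size or the shared sign of their difference. That choice favours such opposite moves, so they are a description and no support for a change. Procr (fitted difference -1.53), Tonsl (-1.31) and Slc37a4 (-0.92) were higher with LPS in every Control pair and lower in every Runx1KO pair. Prss57 (1.01), Cpa3 (3.20) and Ccl7 (3.45) showed the reverse. The difference itself was tested with edgeR and none of the 6 passed (adjusted p 0.99993 for each). Over all 12917 genes, 70 were higher in all Control pairs and lower in all Runx1KO pairs, and 131 the reverse. Procr, Cpa3 and Ccl7 had under 160 counts in any group, with 3 for Cpa3 in Runx1KO vehicle and 4 for Ccl7 in Control LPS. In Runx1KO pair 1 the vehicle and LPS counts were equal for Ccl7 (1 each) and Prss57 (31 each). Their moves of 0.03 and 0.08 log2 there came from library scaling. Moves were also near 0 for Procr in Runx1KO pair 3 (-0.03) and, in Control pair 2, for Slc37a4 (0.01) and Cpa3 (-0.05).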

How the results depend on the processing

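No gene was called for the difference under any setting run. The count at an unadjusted p under 0.05 was 77, and it was 234 without a filter on low counts, 27 with at least 1 CPM in all 12 libraries, 80 with library size alone, 88 in DESeq2 and 57 in limma-voom. DESeq2 called 1 gene for the LPS response of Runx1KO. The median difference of all genes was 0.05, against -0.149 with library size alone, 0.0094 in limma-voom and 0.012 without the filter. With library size alone the medians of numbers 1, 2 and 3 were 0.024, -0.050 and -0.509. The sign turned with library size alone for Myd88 -0.35, Nfkbia -0.10 and Runx1 -0.17, with DESeq2 size factors for Runx1 -0.0044, in DESeq2 for Runx1 -0.0041, without the filter for Myd88 -0.030 and Runx1 -0.024, and in limma-voom for Myd88 -0.39, Tnf -0.37, Nfkbia -0.072, Dusp6 0.0070, Tlr9 -0.42, Asns -0.061, Ikbke -0.48, Maff 0.54 and Dusp8 0.22. The cause was not tested.

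Leaving out 1 library, or 1 number, gave counts at an unadjusted p under 0.05 from 52 to 352 and medians from -0.034 to 0.080. Without both Runx1KO libraries numbered 1, a setting added after seeing the data like limma-voom with the block and the set of 236 genes, the count was 264. The sign of 38 of the 88 single genes compared turned in at least 1 such fit, and 25 of the 28 list medians took both signs. The genes had these log2 ranges: Ly96 (-0.60 to 1.67), Ccl6 (-0.080 to 0.54), Myd88 (-0.76 to 0.82), Foxo1 (-0.62 to 0.026), Cxcl2 (-0.55 to 3.17), Ccl3 (-0.44 to 3.06), Tnf (-0.52 to 1.80) and Il6 (-1.80 to 1.65). The ranges continued with Cd14 (-0.55 to 1.38), Nfkbia (-0.37 to 0.69), Runx1 (-0.21 to 0.33), Dusp6 (-0.43 to 0.23), Tnfaip3 (-0.62 to 0.75), Csf3 (-1.48 to 2.54), Tlr9 (-1.05 to 2.28) and Ccr2 (-0.025 to 1.63). Others were Cd74 (-0.62 to 1.49), Slc7a11 (-0.28 to 1.53), Asns (-1.33 to 1.75), Bcl2a1b (-0.76 to 2.58), Prg2 (-0.38 to 2.66), Ikbke (-1.28 to 2.10), Vwf (-0.71 to 2.00) and Pfkm (-0.49 to 1.38). Further ranges were Cbfa2t3 (-1.29 to 1.04), Nfkbie (-1.08 to 0.59), Vpreb1 (-0.83 to 0.57), Alox5 (-0.71 to 0.17), Pfkfb4 (-1.21 to 0.56), Mmp9 (-0.65 to 0.087), Maff (-1.80 to 1.84) and Mx2 (-1.67 to 0.36). The last were Zbtb46 (-2.86 to 0.57), Nlrc4 (-2.09 to 0.062), Cd180 (-5.91 to 0.16), Dusp8 (-4.12 to 1.17), Rhov (-0.083 to 2.43) and Fn1 (-3.50 to 0.16). Where an arm has 1 library left, its spread is taken from the other groups.

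Libraries with the same number deviated from their group means with correlations of -0.053 to 0.667 over 18 pairs (median 0.398, 16 over 0.1). Between libraries with different numbers the median was -0.219, and 12 of 12 libraries correlated best with their own number. As not every same-number correlation passed 0.1, the main fit had no block, and its SE and intervals hold the spread between numbers. With the block the SE was 0.54 against 1.10 for Socs1, and 1.85 against 1.70 for Tnf. A replicate block gave 0 called genes, 185 at an unadjusted p under 0.05, and turned the sign of Myd88 -0.022, Il6 -0.048, Runx1 -0.0044, Tnfaip3 0.077, Maff 0.41 and Dusp8 0.35. In limma-voom with the block the count was 192 and the median 0.019, with turned signs for Myd88 -0.40, Tnf -0.36, Nfkbia -0.067, Dusp6 0.0088, Ikbke -0.72 and Maff 0.041. At 19023610 counts or more per library, values under about 1 CPM still rested on few reads.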
